A study of Cricetulus griseus with 4 samples.

Results

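The TGF-beta and BMP signalling genes SMAD7, SMAD4, GDF10 and ID4 are described here in clones of Chinese hamster cells that differ in the stability of their chromosomes. They are 4 of the 347 genes that could be named on the array. Each was on 1 of 1152 probes, and each probe was printed as 2 spots. They were chosen from this pathway because their ratios had 1 sign in both of the mixtures that were hybridised, so their signs and sizes on these arrays are given as a description and were not tested.

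The question of the study was whether isogenic clones express genes differently when their chromosomes are stable or unstable. Mixture 1 was made of equal parts of LS12 and of 1 other clone, both unstable. Mixture 2 was made of equal parts of Fe10-3 and 10-56-11, again both unstable, and no clone was in both mixtures. Each mixture was hybridised on 2 arrays in channel 2, with RNA of the stable clone RT210B in channel 1 of every array. The labels give no treatment, time, age or cell type, and each pool joins 2 clones, so the clones of a pool cannot be told apart. RT210B is 1 clone, and its own spread between cultures is not part of any value. The labels do not say whether the replicate arrays came from separate cultures, so errors and p-values measure only the spread between arrays, which may be technical.

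Every value is a log2 ratio between the channels of an array. The numerator of the ratio is not settled by the labels, and no sign below says in which RNA, the unstable mixture's or that of RT210B, a gene was more abundant. From each array the median over probes was subtracted, which was -0.12 and -0.22 in mixture 1 and -0.44 and -0.53 in mixture 2. A value therefore says how far a gene lay from the array's middle probe, and 1.00 on this scale is a 2-fold distance. Where a ratio differs, fewer cells with the RNA and less RNA per cell cannot be told apart. The probes are annotated with human genes while the RNA was hamster, and binding between related genes such as the SMADs or the ID genes was not measured.

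Ligands of the TGF-beta family bind paired receptor kinases at the cell surface, and the receptors phosphorylate SMAD proteins that carry the signal to the nucleus. Receptor-activated SMADs join the common partner SMAD4 to bind DNA, while SMAD6 and SMAD7 are inhibitory SMADs that block the receptors and are themselves switched on by the signal as a feedback. The ID genes are classic targets of the BMP branch, and their proteins bind helix-loop-helix transcription factors and keep them off DNA. In cultured cells the pathway is known for slowing the cell cycle of epithelial cells and for raising matrix production.

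All 4 genes lay on the positive side of the array's middle on all 4 arrays once the arrays were centred. SMAD7 was the farthest out in the mean of both mixtures, followed by GDF10, ID4 and SMAD4. The order of SMAD7 and GDF10 depended on the arrays kept. Without replicate 2 of mixture 1 GDF10 lay at 1.04 and SMAD7 at 1.01, and without replicate 2 of mixture 2 at 1.28 and 1.22. Of all 1152 probes 33.4% had a positive mean in both mixtures, 34.4% a negative mean in both, and 25.8% were positive on all 4 arrays. A shared positive sign was thus common on this array, and here it was the ground for choosing the genes. SMAD7, GDF10 and ID4 were at least 2-fold from the middle on both arrays of mixture 1, as were 14.1% of probes on the positive side.

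SMAD7 (Entrez gene 4092) codes for the inhibitory SMAD that blocks both TGF-beta and BMP receptors. It had log2 ratios of 1.26 and 1.93 on the arrays of mixture 1, and of 0.85 and 0.65 on the arrays of mixture 2. Both arrays of mixture 1 were above both arrays of mixture 2. The mean was 1.59 ± 0.47 in mixture 1 and 0.75 ± 0.14 in mixture 2 (SD, n = 2 arrays each), which is 3.02-fold and 1.68-fold from the middle probe. Its mean over both mixtures was 1.17 (SE 0.216, 4 arrays), and 98.8% of probes lay below it. On mixture 1 replicate 2 and on mixture 2 replicate 2 it had rank 30 of 1152 from the positive end. On replicate 1 its rank was 111 in mixture 1 and 125 in mixture 2.

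GDF10 (Entrez gene 2662) codes for a secreted ligand of the BMP3 subgroup and was the single ligand of the family that could be named on the array. Its log2 ratios were 1.24 and 1.60 in mixture 1, and 1.14 and 0.54 in mixture 2. The 2 mixtures did not overlap, although replicate 1 of mixture 2 lay close to replicate 1 of mixture 1. With the odd spot alone they did overlap, at 1.29 on replicate 1 of mixture 2 and 1.25 on replicate 1 of mixture 1. The mean was 1.42 ± 0.25 in mixture 1 and 0.84 ± 0.43 in mixture 2 (SD, n = 2 arrays each), or 2.68-fold and 1.79-fold from the middle probe. In mixture 2 it was the farthest out of the 4, with 98.6% of probes below it, against 93.1% in mixture 1. Over both mixtures its mean was 1.13 (SE 0.217, 4 arrays). Without replicate 1 of mixture 2 its value in mixture 2 was 0.54.

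ID4 (Entrez gene 3400) codes for a member of the ID family, which lacks a DNA-binding region and sequesters helix-loop-helix partners. It had log2 ratios of 1.12 and 1.63 in mixture 1, and of 0.85 and 0.53 in mixture 2. All 4 values were positive, and again both arrays of mixture 1 lay above those of mixture 2. The means were 1.37 ± 0.36 in mixture 1 and 0.69 ± 0.23 in mixture 2 (SD, n = 2 arrays each). These are 2.59-fold and 1.61-fold from the middle probe, and the mean over both mixtures was 1.03 (SE 0.212, 4 arrays). ID4 stood at nearly the same place in both mixtures, with 92.2% of probes below it in mixture 1 and 92.1% in mixture 2.

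SMAD4 (Entrez gene 4089) codes for the common SMAD that receptor-activated SMADs of both branches need to act on their genes. Its log2 ratios were 0.48 and 0.93 in mixture 1, and 0.99 and 0.26 in mixture 2. The mixtures overlapped, and the highest and the lowest value were both in mixture 2. The means were 0.71 ± 0.32 in mixture 1 and 0.62 ± 0.52 in mixture 2 (SD, n = 2 arrays each), or 1.63-fold and 1.54-fold from the middle probe. SMAD4 was the least extreme of the 4 genes in the mean of both mixtures, at 0.67 (SE 0.225, 4 arrays), with 79.9% of probes below it. In mixture 2 its value depended on which array was kept, at 0.26 without replicate 1 and 0.99 without replicate 2.

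**Figure D1:**
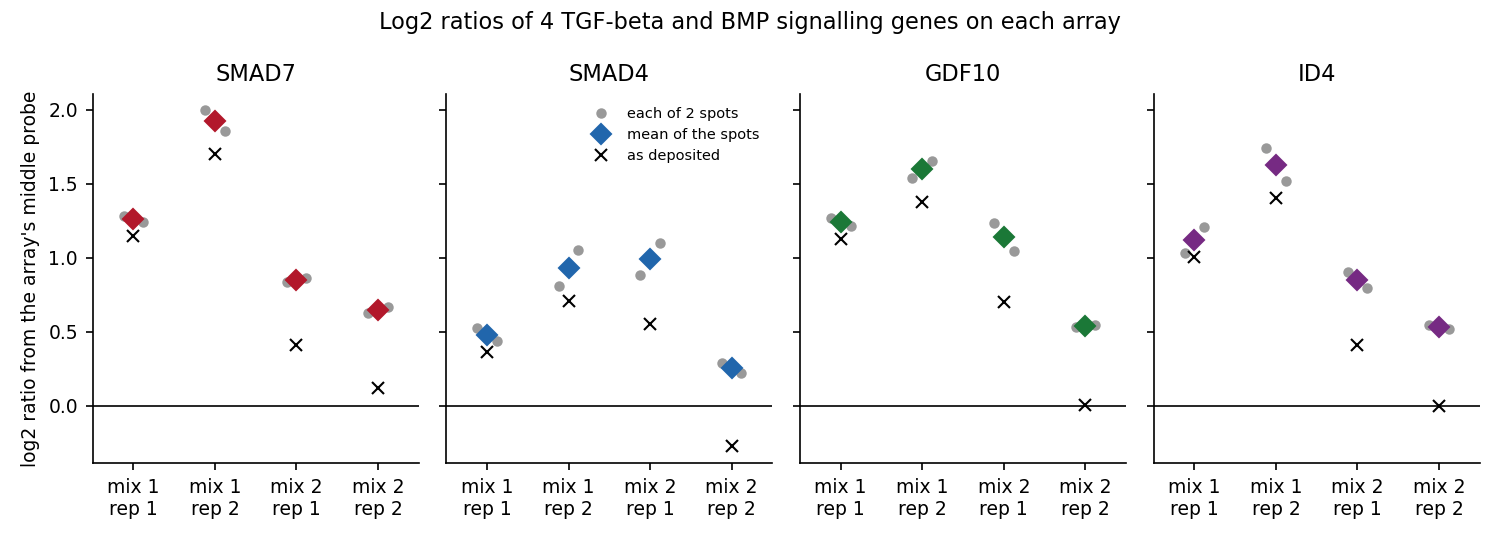
The log2 ratio (y axis) of SMAD7, SMAD4, GDF10 and ID4 on each of the 4 arrays (x axis), with grey points for the 2 spots, diamonds for their mean after centring and crosses for the mean as deposited. All diamonds lie above 0, from 0.26 to 1.93, while on mixture 2 replicate 2 the deposited values of GDF10 and ID4 lie at 0.01 and 0 and that of SMAD4 at -0.27.

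On replicate 2 of mixture 2 the positive sign of ID4 and SMAD4 depended on the centring, while the mixture 2 means of all 4 genes stayed positive without it. In the values as deposited, the 2 arrays of mixture 2 gave 0.41 and 0.12 for SMAD7, 0.70 and 0.01 for GDF10, 0.41 and 0 for ID4, and 0.55 and -0.27 for SMAD4. SMAD7 and GDF10 were thus positive on all 4 arrays before centring, as were 5.47% of probes, while ID4 reached 0 and SMAD4 was negative on mixture 2 replicate 2. Without centring the means in mixture 2 were 0.26 for SMAD7, 0.35 for GDF10, 0.21 for ID4 and 0.14 for SMAD4. In mixture 1, where less was subtracted, they were 1.43, 1.25, 1.20 and 0.54.

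Between the mixtures, SMAD7 lay 0.85 higher on the log2 scale in mixture 1 than in mixture 2 (SE 0.433), ID4 0.68 higher (SE 0.425), GDF10 0.58 higher (SE 0.433) and SMAD4 0.08 higher (SE 0.450). The mean was higher in mixture 1 for 54.3% of all probes. For 3 of the 4 genes both arrays of mixture 1 lay above both arrays of mixture 2, as they did for 36.2% of all probes and for 69.7% of the 297 probes that were positive on all 4 arrays. The arrays of mixture 1 also had wider ratios in general, with an SD over probes of 1.14 and 1.05, against 0.80 and 0.47 in mixture 2. With the arrays scaled to 1 spread, the difference between mixtures was 0.22 for SMAD7, 0.15 for ID4, 0.02 for GDF10 and -0.21 for SMAD4, and the mixtures overlapped for all 4 genes. For GDF10 the mixtures also overlapped with the odd spot alone, over probes with close duplicate spots and with the duplicate trend removed. Without replicate 2 of mixture 1 the difference was 0.51 for SMAD7 and 0.43 for ID4, and that of GDF10 was 0.88 without replicate 1 and 0.28 without replicate 2 of mixture 2. That of SMAD4 ran from -0.28 to 0.45 with 1 array left out.

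Replicates differed in the same way for all 4 genes. In mixture 1 each had its higher value on replicate 2, and in mixture 2 each had its higher value on replicate 1. Of the 297 probes positive on all 4 arrays, 165 (55.6%) showed this same order, so the order was common among such probes. GDF10 and ID4 had the closest profiles, with a root mean square difference of 0.16 (log2) over the 4 arrays, followed by SMAD7 and ID4 at 0.18 and SMAD7 and GDF10 at 0.23. SMAD4 lay farther from the other three, at 0.50 from ID4, 0.53 from GDF10 and 0.67 from SMAD7.

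**Figure D2:**
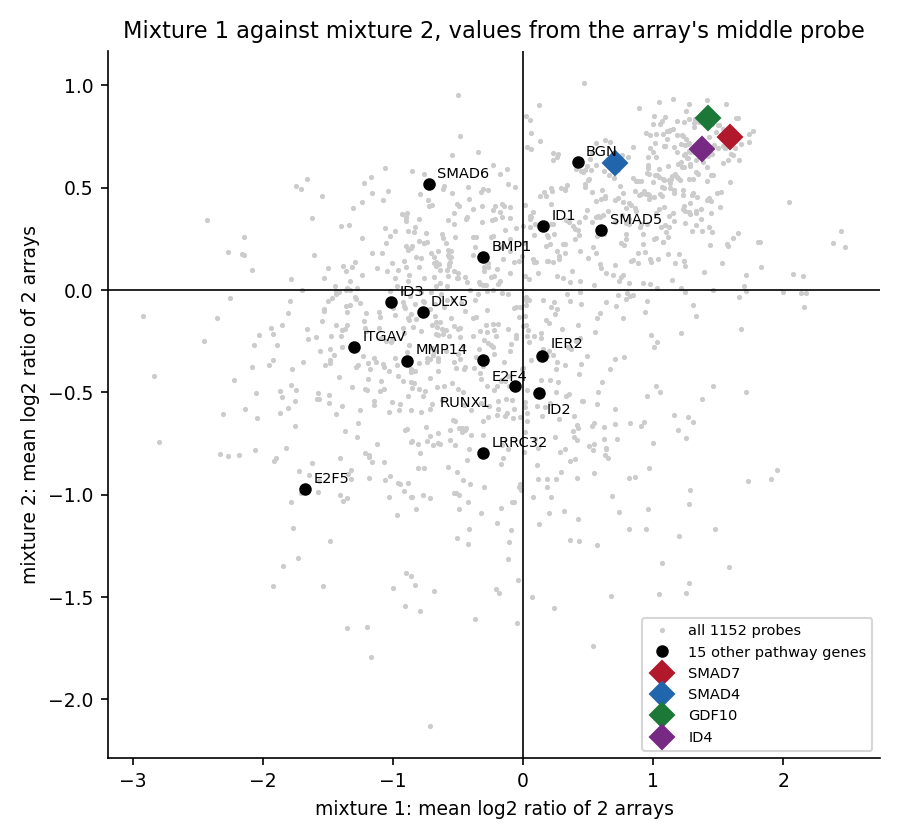
The mean log2 ratio of mixture 1 (x axis) and of mixture 2 (y axis), each over 2 arrays, for all 1152 probes (grey), 15 other pathway genes (black) and the 4 genes (diamonds). SMAD7, GDF10 and ID4 lie together in the upper right, at 1.37 to 1.59 in mixture 1 and 0.69 to 0.84 in mixture 2, within a dense group of other probes, and SMAD4 lies nearer to BGN and SMAD5.

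Many other probes had profiles like these. Among named genes the smallest root mean square differences from SMAD7 over the 4 arrays were those of ZNF131 (0.07), IRF1 (0.08) and ETS2 (0.08), all closer to SMAD7 than any of the other three genes was. For GDF10 they were SRA1 (0.11), CD99L2 (0.12) and SRPK1 (0.14), and for ID4 TNFSF11 (0.09), UBE2N (0.09) and MEIS1 (0.10). For SMAD4 they were OPCML (0.09), FOSB (0.19) and GABPA (0.19). The median difference over all probes was 1.48 from SMAD7, 1.42 from GDF10, 1.34 from ID4 and 1.03 from SMAD4. Of all probes, named or not, 38 were nearer to SMAD7 than GDF10 was, and 238 were nearer to SMAD7 than SMAD4 was.

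The wider pathway was drawn from a list of 167 genes, of which 19 had a named probe. Besides the 4 genes these were 15 others, namely 2 SMADs, 5 genes that act outside the cell, 3 transcription partners and 5 target genes, and none of 22 listed receptor genes could be named. The 15 are what remained after 4 genes had been picked for their sign, so their signs are not a free sample of the pathway. In mixture 1, 4 of the 15 passed limma's test at a Benjamini-Hochberg adjusted p under 0.05, all on the negative side, beside 43.1% of all probes (24.4% positive, 18.8% negative). Their median log2 ratio was -0.31, against -0.03 over all probes. In mixture 2 none of the 15 passed in limma, nor did any other probe (0.0% of probes), and 2 of the 15 and 19.6% of probes had an unadjusted p under 0.05. In the mean of both mixtures 3 of the 15 passed, again all negative, beside 38.7% of probes (21.7% positive, 17.0% negative), and their median was -0.27 against -0.10 over all probes.

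The choice of the 4 genes did not exhaust the genes of 1 sign. Of the 15 others, 11 also had means of 1 sign in both mixtures (67.8% of all probes did), 3 of them positive (SMAD5, BGN and ID1) and 8 negative. The positive 3 were also positive on all 4 arrays, at lower values than SMAD7, GDF10 and ID4 on each array except mixture 2 replicate 1, where BGN at 0.93 lay above SMAD7 and ID4. On all 4 arrays 4 of the 15 were negative, as were 19.9% of probes. Just on the other side of the rule were the 4 genes with means of opposite sign, SMAD6, BMP1, ID2 and IER2. These signs moved with the centring. In the values as deposited 13 of the 15 had means of 1 sign, 12 of them negative. Over all probes the median of the deposited means was -0.20 in mixture 1 and -0.49 in mixture 2. A negative lean was thus shared by the whole array, and the share of all probes with 1 sign as deposited was not counted. Of the positive genes BGN alone stayed positive in both mixtures as deposited (0.25 in mixture 1 and 0.14 in mixture 2). SMAD5 then lay at 0.43 in mixture 1 and -0.19 in mixture 2, ID1 at -0.01 and -0.17, and BMP1 at -0.48 and -0.32.

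**Figure D3:**
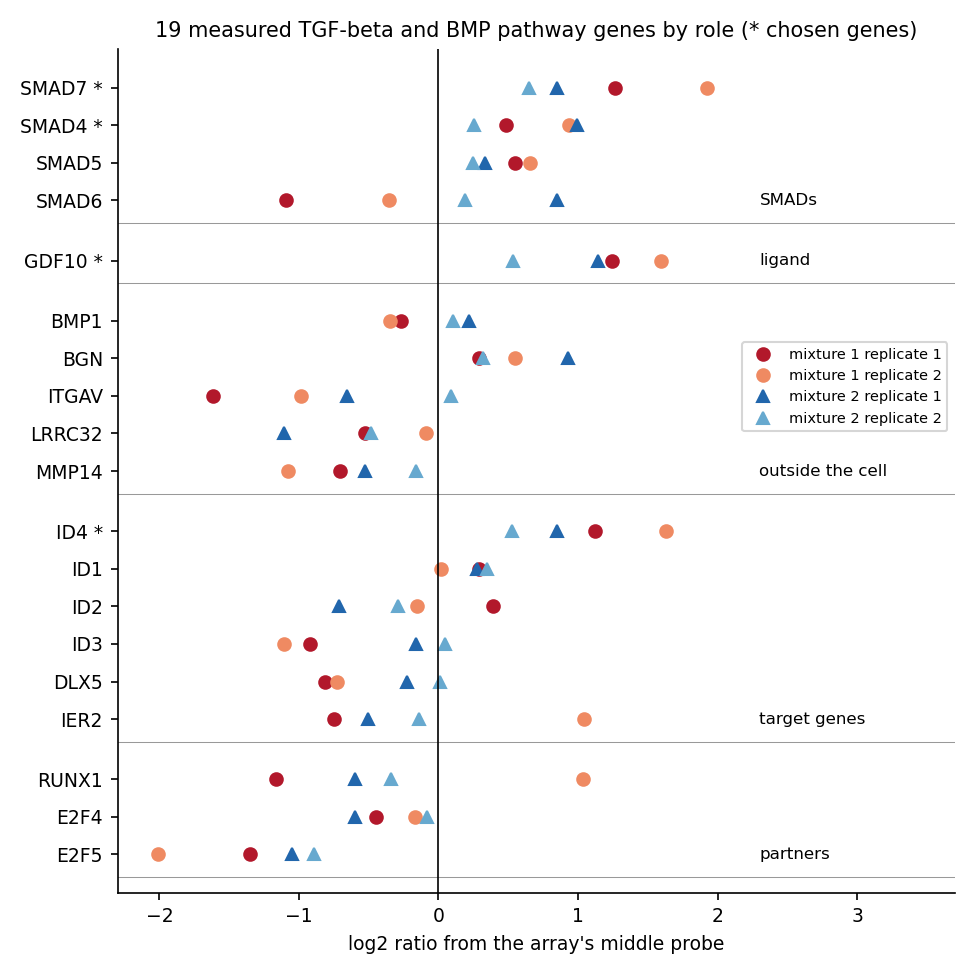
The log2 ratio from the array's middle probe (x axis) of the 19 measured pathway genes in rows by role, with circles for the arrays of mixture 1, triangles for those of mixture 2 and an asterisk at SMAD7, SMAD4, GDF10 and ID4. SMAD6 lies at -1.09 and -0.36 in mixture 1 and at 0.85 and 0.19 in mixture 2, and E2F5 is negative on all 4 arrays.

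Within the SMAD family the 4 measured genes spread over 2.32 log2 units in mixture 1 and over 0.46 in mixture 2. SMAD5, which BMP receptors activate, lay at 0.55 and 0.66 in mixture 1, and at 0.34 and 0.25 in mixture 2. After centring it was on the side of SMAD7 and SMAD4 on every array, and it did not pass in limma (mean of both mixtures 0.45, SE 0.200, adjusted p 0.106). SMAD6, the inhibitory SMAD that acts mainly on the BMP branch, lay at -1.09 and -0.36 in mixture 1, and at 0.85 and 0.19 in mixture 2. The 2 inhibitory SMADs were thus on opposite sides in mixture 1 and on the same side in mixture 2 after centring, with SMAD6 at -0.73 in mixture 1 (limma adjusted p 0.105) and 0.52 in mixture 2 (0.368). The difference of SMAD6 between the mixtures was -1.24 (SE 0.465) and did not pass in limma (adjusted p 0.162), as no probe did (0.0%). Where 1 array is left out, its mixture has 1 array that is assumed to vary like those of the other mixture. Without replicate 2 of mixture 1, SMAD6 passed in limma on the negative side in mixture 1 (-1.09, adjusted p 0.0427) and in the difference between mixtures (-1.61, adjusted p 0.0262). It also passed in mixture 1 without centring (-0.89, limma adjusted p 0.0493), a setting that lowered every probe there by 0.17. As deposited its arrays of mixture 2 lay at 0.41 and -0.34. Over probes with close duplicate spots SMAD6 passed in mixture 1 (-1.55, limma adjusted p 0.00912) and in the mean (-0.74, adjusted p 0.0295). In the main fit its mean of both mixtures was -0.10 (limma adjusted p 0.751). The close-duplicate setting centres the arrays again and lowered every probe by 0.83 in mixture 1 and by 0.64 in the mean. Of the 135 calls there in mixture 1, 98 were negative, as were 88 of 114 in the mean. At an unadjusted p under 0.05, 2 of the 15 genes and 23.9% of probes differed between the mixtures.

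The 4 measured ID genes lay on both sides of the middle. ID1 lay at 0.29 and 0.02 in mixture 1, and at 0.28 and 0.35 in mixture 2. ID3 lay at -0.92 and -1.10 in mixture 1, and at -0.16 and 0.05 in mixture 2. It passed on the negative side in mixture 1 (-1.01, SE 0.286, limma adjusted p 0.0221) and not in the mean of both mixtures (-0.54, adjusted p 0.0636). ID2 had values of 0.39 and -0.15 in mixture 1, and of -0.71 and -0.29 in mixture 2, with no contrast past the threshold in limma. ID4 had the highest value of the 4 ID genes on each array, and the family spread over 2.39 log2 units in mixture 1 and 1.19 in mixture 2. In mixture 1 the ID3 call was lost on arrays of equal spread (-0.80, limma adjusted p 0.0619), with the even spot alone (-0.70, adjusted p 0.10), with the duplicate trend removed (-0.79, adjusted p 0.10) and without replicate 2 of mixture 1 (-0.92, adjusted p 0.0892). In the mean ID3 passed in limma without centring (-0.86, adjusted p 0.0113), a setting that lowered every probe there by 0.33. With the odd spot alone ID3 also passed in the mean (-0.78, limma adjusted p 0.0369).

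Among the genes that act outside the cell, ITGAV, the integrin subunit that helps to release latent TGF-beta, passed on the negative side in mixture 1 (-1.30, SE 0.327, limma adjusted p 0.0148) and in the mean of both mixtures (-0.79, adjusted p 0.0270). Its values were -1.62 and -0.99 in mixture 1, and -0.65 and 0.09 in mixture 2. MMP14, a membrane protease of the matrix, lay at -0.71 and -1.08 in mixture 1, and at -0.53 and -0.16 in mixture 2. It passed narrowly in mixture 1 (-0.89, limma adjusted p 0.0384) and in the mean (-0.62, adjusted p 0.0448), and these calls were lost under 8 and 6 of the 9 other settings in which it was measured. Without any 1 of the 4 arrays the mixture 1 call was lost (limma adjusted p 0.0508 to 0.195), at -0.71 without replicate 2 of mixture 1, and the call in the mean was lost at -0.53 without that array or without replicate 1 of mixture 2 and at -0.71 without replicate 2 of mixture 2. The ITGAV call in mixture 1 was lost without that mixture's replicate 1 (-0.99, adjusted p 0.0747 in limma), and its call in the mean without that array (-0.63, adjusted p 0.0533) and without replicate 1 of mixture 2 (-0.60, adjusted p 0.180). In the mean the ITGAV call was also lost with the odd spot alone (-0.89, limma adjusted p 0.0577) and with the duplicate trend removed (-0.73, adjusted p 0.0630). BGN, the small matrix proteoglycan biglycan that binds TGF-beta, had positive values on all 4 arrays after centring, at 0.29 and 0.55 in mixture 1 and at 0.93 and 0.32 in mixture 2. LRRC32, which holds latent TGF-beta at the cell surface, lay at -0.52 and -0.09 in mixture 1, and at -1.11 and -0.49 in mixture 2. BMP1, a procollagen protease and no ligand despite its name, lay at -0.27 and -0.35 in mixture 1, and at 0.22 and 0.10 in mixture 2. In the main fit neither BGN, LRRC32 nor BMP1 passed in limma in either mixture or in the mean (adjusted p 0.0742 to 0.788). In the mean LRRC32 lay at -0.66 without replicate 2 of mixture 1, a fit where mixture 1 has 1 array and the call can differ. Without centring it passed in limma in mixture 2 (-1.28, adjusted p 0.0258) and in the mean (-0.88, adjusted p 0.0122). That setting lowered every probe by 0.48 in mixture 2 and by 0.33 in the mean. All 206 probes that passed in mixture 2 without centring were negative. On arrays of equal spread LRRC32 likewise passed in limma in mixture 2 (-1.05, adjusted p 0.0436) and in the mean (-0.64, adjusted p 0.0334).

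Of the transcription partners E2F5 lay farthest from the middle, at -1.35 and -2.01 in mixture 1, and at -1.05 and -0.89 in mixture 2. E2F4 and E2F5 are the repressor E2F factors that enter SMAD complexes at cell cycle genes. E2F5 passed in mixture 1 (-1.68, SE 0.305, limma adjusted p 0.0082) and in the mean (-1.33, SE 0.216, adjusted p 0.00906), while E2F4 did not (-0.31, adjusted p 0.423, and -0.32, adjusted p 0.244). Leaving out either array of mixture 1 could not move the mixture 2 value of E2F5, which stayed at -0.97. The spread behind a call is estimated anew in such fits, so the call can differ from that of the main fit. For mixture 2 these 2 fits rest on the same 2 arrays and count as 1. In mixture 2 E2F5 passed in limma without centring (-1.46, adjusted p 0.0222), as did 206 of 1152 probes, all negative. On arrays of equal spread it also passed there (-1.39, limma adjusted p 0.0277), as did 203 probes. Without centring, which lowered every probe by 0.33 in the mean, E2F4 passed in the mean (-0.65, limma adjusted p 0.0314). RUNX1, a SMAD-binding transcription factor, lay at -1.16 and 1.04 in mixture 1, and at -0.60 and -0.34 in mixture 2. Its arrays of mixture 1 were on opposite sides, and its 2 spots differed by 2.38 on replicate 2 of mixture 1. Without that array, the one where RUNX1 was positive, mixture 1 has 1 array, assumed to vary like those of mixture 2, and RUNX1 passed in that fit in mixture 1 (-1.16, limma adjusted p 0.0311) and in the mean (-0.82, adjusted p 0.0111). IER2, an immediate early gene, had the same split at -0.75 and 1.04 in mixture 1, with spots 1.79 and 2.98 apart, and lay at -0.51 and -0.14 in mixture 2. DLX5, a homeobox gene that BMP signals induce, lay at -0.81 and -0.73 in mixture 1, and at -0.23 and 0.01 in mixture 2, and did not pass in limma (mixture 1 adjusted p 0.0557). Without centring it passed in mixture 1 (-0.94, limma adjusted p 0.0275) and in the mean (-0.77, adjusted p 0.0158). That setting lowered every probe by 0.17 in mixture 1 and by 0.33 in the mean.

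The duplicate spots of the 4 genes agreed closely, as was common among probes positive on all 4 arrays. The spots of a gene differed by 0.01 to 0.25 on the log2 scale over the 16 pairs, with a median of 0.10, and all 16 lay below the median of their array, which was 0.35, 0.35, 0.33 and 0.12. Among the probes positive on all 4 arrays the medians were lower, at 0.09 and 0.15 in mixture 1 and 0.18 and 0.06 in mixture 2, and 9 of the 16 pairs lay below these. The spots of SMAD7 differed by 0.05 and 0.14 in mixture 1, and by 0.02 and 0.04 in mixture 2. All 4 genes had spots within 0.5 on every array, as did 3 of the 15 other pathway genes and 33.8% of all probes, but 78.1% of the 297 probes positive on all 4 arrays. Across probes the ratio and the difference of the spots were related on each array, with Spearman's rho of -0.37 and -0.26 in mixture 1 and of -0.38 and -0.49 in mixture 2. These points share an array and are not independent.

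**Figure D4:**
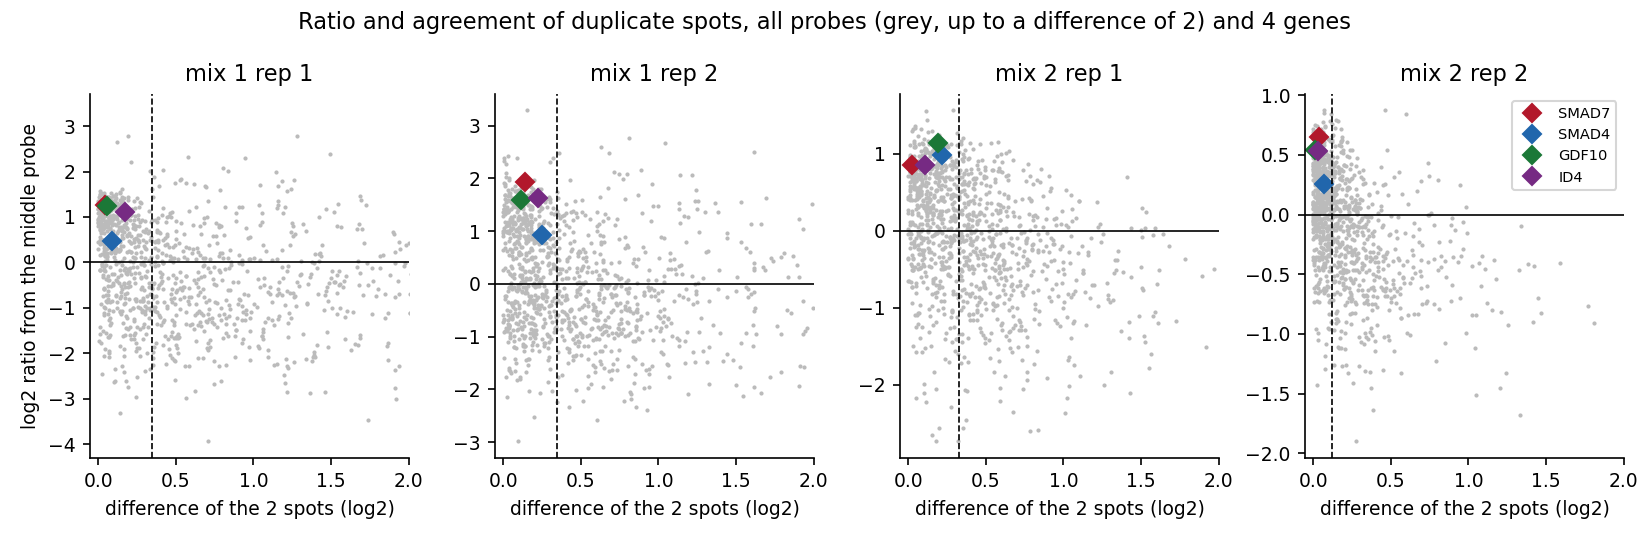
The log2 ratio from the middle probe (y axis) against the difference between the 2 spots of a probe (x axis) on each array, for all probes with a difference of up to 2 (grey) and for SMAD7, SMAD4, GDF10 and ID4 (diamonds), with a dashed line at the median difference. All 16 diamonds lie left of the dashed line and above 0, in a dense part of the cloud.

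With the trend of the ratio on this difference removed, the 4 genes kept their sign in both mixtures at lower values. In mixture 1 they lay at 1.12 for SMAD7, 1.10 for ID4, 0.94 for GDF10 and 0.36 for SMAD4, and in mixture 2 at 0.43, 0.41, 0.60 and 0.44. Set only among the 389 probes with spots within 0.5, with each array centred again on those probes, they lay at 0.77, 0.55, 0.59 and -0.12 in mixture 1 and at 0.30, 0.24, 0.39 and 0.17 in mixture 2. This centring lowered every probe by 0.83 in mixture 1 and by 0.45 in mixture 2, and it left SMAD4 at the middle, with a mean of 0.03 over both mixtures. SMAD7, GDF10 and ID4 remained positive on all 4 arrays there, at means of 0.53, 0.49 and 0.39. The part of spot agreement in these ratios was not tested further, and no spot intensities were used here.

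**Figure D5:**
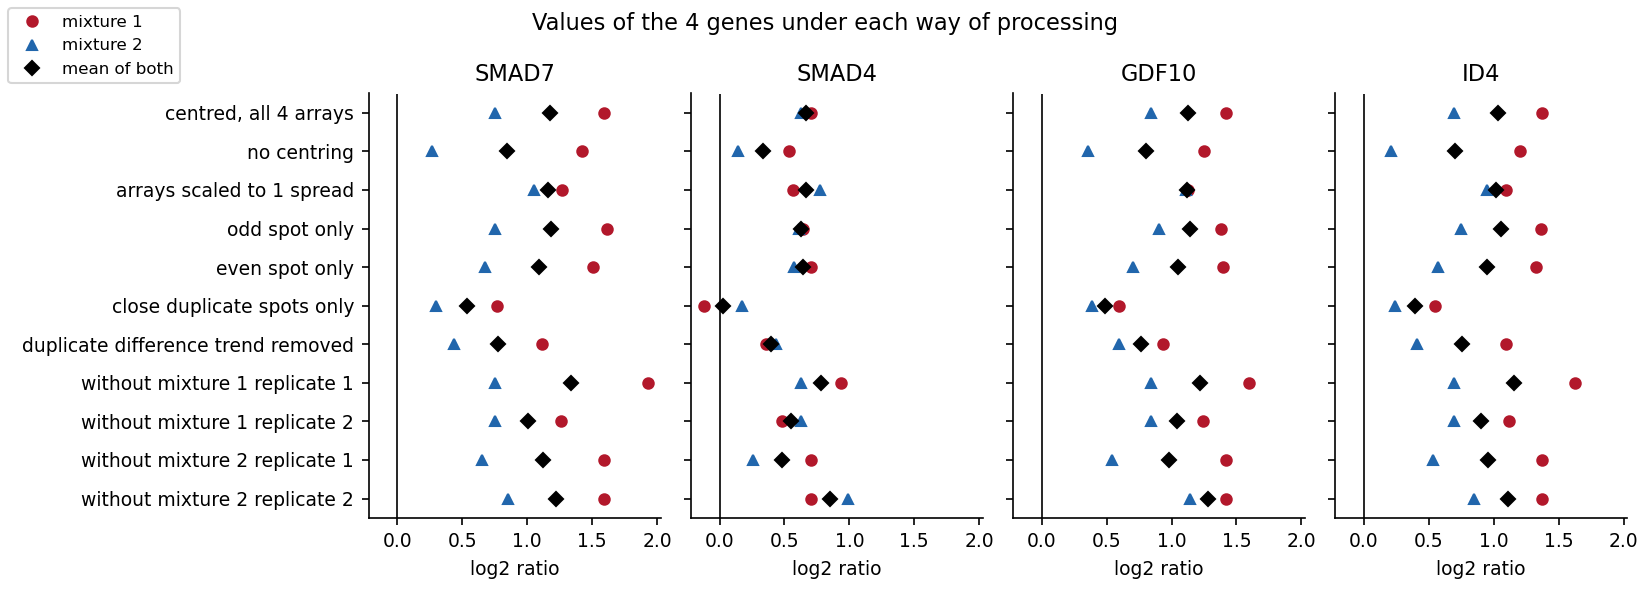
The log2 ratio (x axis) of each of the 4 genes in mixture 1 (circles), mixture 2 (triangles) and the mean of both (diamonds) under each way of processing (rows). SMAD7, GDF10 and ID4 stay right of 0 in every row, and SMAD4 in mixture 1 lies at -0.12 over probes with close duplicate spots.

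The labels name no cell type. Of the fixed markers, 2 of 10 mesenchymal genes had a named probe and none of 8 epithelial or 6 blood cell genes did. CDH11 lay at 0.96 and 0.94 in mixture 1, and at 0.53 and 0.41 in mixture 2, and CDH2 at -0.28 and -0.96 in mixture 1, and at 0.65 and -0.10 in mixture 2. Ratios give no level, so the presence of these markers could not be checked.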

How the data were processed

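RNA of unstable clone mixtures and of the stable clone RT210B was compared on 4 two-channel arrays. The authors deposited log2 ratios, 1 for each of 2304 spots per array, with no missing value. Per the labels, mixture 1 replicate 2 had a normalization factor of 3.8 and mixture 2 replicate 1 one of 1.169. The sources used here do not give the dyes, the scanner, the background correction or the spot intensities. Adjacent spots were averaged to 1152 probes. Of these 350 carried 1 gene symbol in GEO's platform annotation, 8 several and 794 are unnamed here. Each array was centred on its median. Contrasts were fitted with limma 3.58.1 in R 4.3.3 over all 4 arrays, with 1 mean per mixture (2 residual and 6.69 prior degrees of freedom) and Benjamini-Hochberg adjustment over all probes; SEs are limma's. The fit was tested on simulated data.

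The 4 genes, the pathway lists and the tests were chosen with earlier results of these data known. Named genes are the 4 genes, every other measured list gene, and the 3 named genes nearest to each by root mean square difference. Replicate numbers were shared between mixtures, and the deviations of same-numbered arrays correlated at -0.10, so they were not treated as pairs. Alternatives were no centring, equal spread, single spots, close duplicate spots (within 0.5), removal of the duplicate trend by loess, a replicate block and leaving out each array. Sequences were not used here. The number of arrays limits the precision.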

Additional observations from a re-analysis of the deposited data

Results flagged for a closer look

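SMAD6 and BMP1 were singled out because both arrays of mixture 1 lay on one side of the middle probe and both arrays of mixture 2 on the other. Of all 1152 probes 67.8% had means of 1 sign in both mixtures, so opposite means were not rare. The share of all probes that met the rule on every array was not counted. SMAD6 differed by -1.24 (log2, mixture 1 minus mixture 2; SE 0.465), and this difference did not pass in limma (adjusted p 0.162). Without replicate 2 of mixture 1 it was -1.61 and passed (limma adjusted p 0.0262), in a fit where mixture 1 has 1 array that is assumed to vary like those of mixture 2. BMP1 differed by -0.47 (SE 0.401, limma adjusted p 0.458), and its 2 spots were 1.30 apart on replicate 1 of mixture 1. The opposite sides depended on the centring, since as deposited BMP1 was negative on all 4 arrays and SMAD6 was negative on replicate 2 of mixture 2.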

How the results depend on the processing

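The signs of SMAD7, GDF10 and ID4 in mixture 1, in mixture 2 and in the mean of both held under all 10 alternatives. That of SMAD4 held under all but 1. Leaving out an array or scaling the arrays could not change these signs, since each gene was positive on all 4 centred arrays. The signs were also the ground for choosing the genes. Over probes with close duplicate spots, a setting that centres the arrays again on fewer probes, the means of both mixtures were 0.53 for SMAD7, 0.026 for SMAD4, 0.49 for GDF10 and 0.39 for ID4, and SMAD4 turned to -0.12 in mixture 1. In that setting OPCML, named for its likeness to SMAD4, turned to -0.20 in mixture 1 and -0.034 in the mean, and with the even spot alone GABPA turned to -0.12 in mixture 1.

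Counts of passing probes in limma also moved with the processing. In mixture 1 they were 291 with the arrays scaled to 1 spread, 135 of 389 over close duplicates and 230 with the duplicate trend removed, against 497. In mixture 2 they were 206 without centring, 203 with scaling, and 113 on its own 2 arrays, against 0, and 0 to 113 with 1 array left out. In the mean they were 114 over close duplicates and 129 with the trend removed, against 446, and 219 to 505 with 1 array left out. Between the mixtures they were 47 without centring, 1 over close duplicates and 36 with the replicate block, against 0, and 0 to 213 with 1 array left out. The split of calls also moved with the centring, from 250 positive and 196 negative in the mean to 124 and 434 without it. Without centring 0 of the 206 calls in mixture 2 were positive, and the mixture 1 calls were 232 positive and 292 negative, against 281 and 216. With scaling mixture 2 had 68 positive and 135 negative calls. Over close duplicates mixture 1 had 37 positive and 98 negative calls, and with the trend removed 83 and 147.

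Of the 15 other pathway genes, 2 passed in mixture 1 with scaling, with the even spot alone and with the trend removed, against 4. Of all 1152 probes 291, 381 and 230 did so, against 497. Over close duplicates 1 of the 3 kept passed in mixture 1, beside 135 of 389 probes. In mixture 2, 2 passed without centring (206 of 1152 probes did) and 2 with scaling (203 did), against 0. In the mean 7 passed without centring, beside 558 of 1152 probes, against 3 beside 446. With the trend removed 1 passed in the mean, beside 129 of 1152 probes, and over close duplicates 1 did, beside 114 of 389. Between the mixtures 0 of the 15 passed, as did 0 of 1152 probes. With 1 array left out the counts of the 15 also varied, in fits where 1 mixture rests on 1 array. Causes of these changes were not tested beyond what each setting does to the values. With the replicate number as a block, 471 probes passed in mixture 1 and 428 in the mean, and the numbers are no proven pairs.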

Other observations

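In the RefSeq annotation of the Chinese hamster assembly CriGri-PICRH-1.0, Smad7 and Smad4 lie on the same chromosome with 17 protein-coding genes between them. This assembly was used only for names and for the order of genes, and 306 of the 347 named genes of the array were found in it by symbol, among them 3 of the 4 genes described. Of the genes between, 1 had a named probe on the array. This was MAPK4, an atypical MAP kinase, chosen after the values of SMAD7 and SMAD4 had been seen. It lay at -0.05 and -1.05 in mixture 1, and at -0.30 and -0.61 in mixture 2. MAPK4 was thus negative on all 4 arrays, as were 19.9% of all probes, and its first value was near the middle. It did not pass in limma (mean of both mixtures -0.50, adjusted p 0.121).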
